A study of Mus musculus with 9 samples.

Results

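The 10 iron handling genes described here were Hamp, Hamp2, Bmp6, Slc40a1, Cp, Trf, Tfr2, Tfrc, Fth1 and Ftl1, taken as a list of named genes from the 17846 genes measured in mouse liver. They were measured by RNA sequencing in 9 male wild-type (WT) mice of the strain C57/BL, with 1 liver library per mouse and 3 mice in each group. Control mice ate a normal diet. NASH mice ate the Ath diet, which contains cholesterol and cholate, for 20 weeks and stayed sedentary, and NASH+Exercise mice, called trained mice below, ate it for 12 weeks before 8 weeks of treadmill training. The liver disease was thus induced by a diet that carries a bile acid, all mice were fasted overnight before the tissue was taken, and no group was trained on the normal diet, so training was compared only among mice with the diet. The labels give no total weeks of diet for the trained mice and do not say whether the diet went on during training. If it did not, weeks of diet and training cannot be told apart. The filter on low counts kept all 10 genes.

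The liver sets the body's iron supply through hepcidin, a peptide hormone encoded by Hamp that makes cells withdraw and degrade ferroportin, the iron exporter encoded by Slc40a1. Hepatocytes transcribe Hamp when bone morphogenetic proteins such as BMP6, made largely by sinusoidal endothelial cells, act through SMAD proteins, and when interleukin 6 acts through STAT3 in inflammation. Iron travels in plasma on transferrin (Trf), is oxidised for loading by ceruloplasmin (Cp), enters cells through the transferrin receptor (Tfrc), is sensed on hepatocytes with the help of transferrin receptor 2 (Tfr2), and is stored in a shell of ferritin heavy (Fth1) and light (Ftl1) chains. Ferritin, ferroportin and the transferrin receptor are also controlled after transcription, because iron regulatory proteins bind hairpins called iron-responsive elements in their mRNAs, so an mRNA level is only one layer of their control.

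The stretch before the start site is shown for both hepcidin genes, with letters known for BMP and STAT3 responses. Hamp gave 1 of the calls described below, and Hamp2 is its neighbouring copy. The stretches run from -150 to -1 relative to the RefSeq start site on the minus strand of chromosome 7 (GRCm38.p6). They lie at chr7:30944030-30944179 for Hamp and chr7:30924182-30924331 for Hamp2. Capitals mark GGCGCC, the core letters of a BMP response element, and TTCNNNGAA, the letters of a STAT site. Both motifs read the same on both strands, and they did not overlap each other.
Hamp: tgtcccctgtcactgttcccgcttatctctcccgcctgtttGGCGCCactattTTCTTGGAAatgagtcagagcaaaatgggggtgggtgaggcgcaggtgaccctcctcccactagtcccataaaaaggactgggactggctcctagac
Hamp2: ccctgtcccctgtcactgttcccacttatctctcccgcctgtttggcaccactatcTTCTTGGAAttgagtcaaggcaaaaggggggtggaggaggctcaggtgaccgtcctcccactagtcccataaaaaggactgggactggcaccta
In Hamp the letters GGCGCC began at -109 and TTCTTGGAA began at -97. In Hamp2 only TTCTTGGAA was found, at -94. Among 32851 RefSeq promoter windows that reach from 250 bases before to 50 bases after a start site, 11.9% held GGCGCC and 8.3% held TTCNNNGAA. Of the 8 genes of the list with such a window, 2 held GGCGCC (Hamp and Tfrc) and 2 held TTCNNNGAA (Hamp and Hamp2). A match describes the letters and is not evidence of a bound site. Whether Hamp and Hamp2 differed in their change between groups was not tested, nor was the part of these letters in it.

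The iron-responsive elements are shown because they mark the 4 genes of the list whose transcripts held the pattern of this second layer of control. The pattern searched, on the sense strand of GENCODE transcripts (GRCm38), was a C, then 5 bases, the loop CAGTGN and 5 more bases, where the 5 bases on each side of the loop had to pair at all 5 positions, with G-T pairs allowed. It was present in 1.34% of 21901 protein-coding genes. Capitals mark the loop.
Slc40a1: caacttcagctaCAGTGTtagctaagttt
Fth1: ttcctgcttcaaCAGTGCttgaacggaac
Ftl1: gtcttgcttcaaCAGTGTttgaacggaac
Tfrc element A: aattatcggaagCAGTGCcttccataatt
Tfrc element B: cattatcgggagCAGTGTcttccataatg
Tfrc element C: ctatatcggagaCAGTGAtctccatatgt
Tfrc element D: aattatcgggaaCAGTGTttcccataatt
The elements of Slc40a1 (chr1:45925465-45925493, minus strand), Fth1 (chr19:9982732-9982760, plus strand) and Ftl1 (chr7:45459779-45459807, minus strand) lie in the 5′ UTR, in exon 1. The 4 matches in Tfrc lie in the 3′ UTR, in exon 19, at chr16:32631219-32631247, chr16:32631598-32631626, chr16:32631663-32631691 and chr16:32631710-32631738 on the plus strand. The letters A to D number these matches by their order in the transcript and are not published names of the elements. An element with a loop other than CAGTGN would not have been found, so the matches need not be all the elements of Tfrc. An element before the coding sequence lets iron regulatory proteins block translation, and those after it protect the mRNA from decay.

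The total estimated count per mouse lay between 20086004 and 22495449. CPM here means counts divided by the TMM-adjusted size of each library, and differences are log2 fold changes with their standard errors from edgeR's quasi-likelihood test, adjusted over 13619 genes by the Benjamini-Hochberg method. Calls required an adjusted p under 0.05 and a log2 fold change beyond 1 in either direction. Without TMM scaling, the median over all genes in NASH against Control moved from 0.01 to 0.36 on the log2 scale, so a direction given here is relative to the other genes. The livers of the groups also differed in cell markers. The summed CPM of 10 hepatocyte markers was 137699 to 159123 in Control, 85451 to 117217 in NASH mice and 94105 to 122677 in trained mice. That of 10 Kupffer cell and macrophage markers was 120 to 220, 1308 to 1440 and 1031 to 1132, and 9 of these 10 were called higher in NASH. Of the 10 sinusoidal endothelial markers 1 was called higher, of 8 erythroid markers 2, of 8 neutrophil markers 7 and of 10 cycling cell markers 9. Of all genes, 15.3% were called higher in NASH against Control and 3.03% lower. Of the 10 hepatocyte markers 1 was called lower, and 2 were lower by the adjusted p. Alb made up most of the hepatocyte sum, with 101864 of 150612 CPM in Control mouse 3 and 72432 of 114105 in NASH mouse 5. Ratios to that sum therefore rest largely on Alb. In bulk tissue, fewer cells of a type and less RNA per cell cannot be told apart. The part of cell composition in the results was not tested beyond the ratios to hepatocyte markers given beside them.

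In the livers of NASH mice, Hamp fell and Cp rose relative to Control, and these were the 2 of 10 genes called. Ftl1 was also lower by the adjusted p, at less than the fold threshold. No call was made for Trf, Slc40a1, Bmp6, Tfr2, Tfrc, Fth1 or Hamp2. In the same comparison 18.3% of all genes tested were called (15.3% higher and 3.03% lower), and 35.6% passed the adjusted p alone, against 3 of the 10 iron genes. In CPM, the groups did not overlap for 4 of the 10 (Hamp, Bmp6, Cp and Ftl1), against 49.6% of all genes. The 10 genes had a median log2 fold change of -0.07, beside 0.01 for all genes, with 5 above 0 and 5 below.

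**Figure D1:**
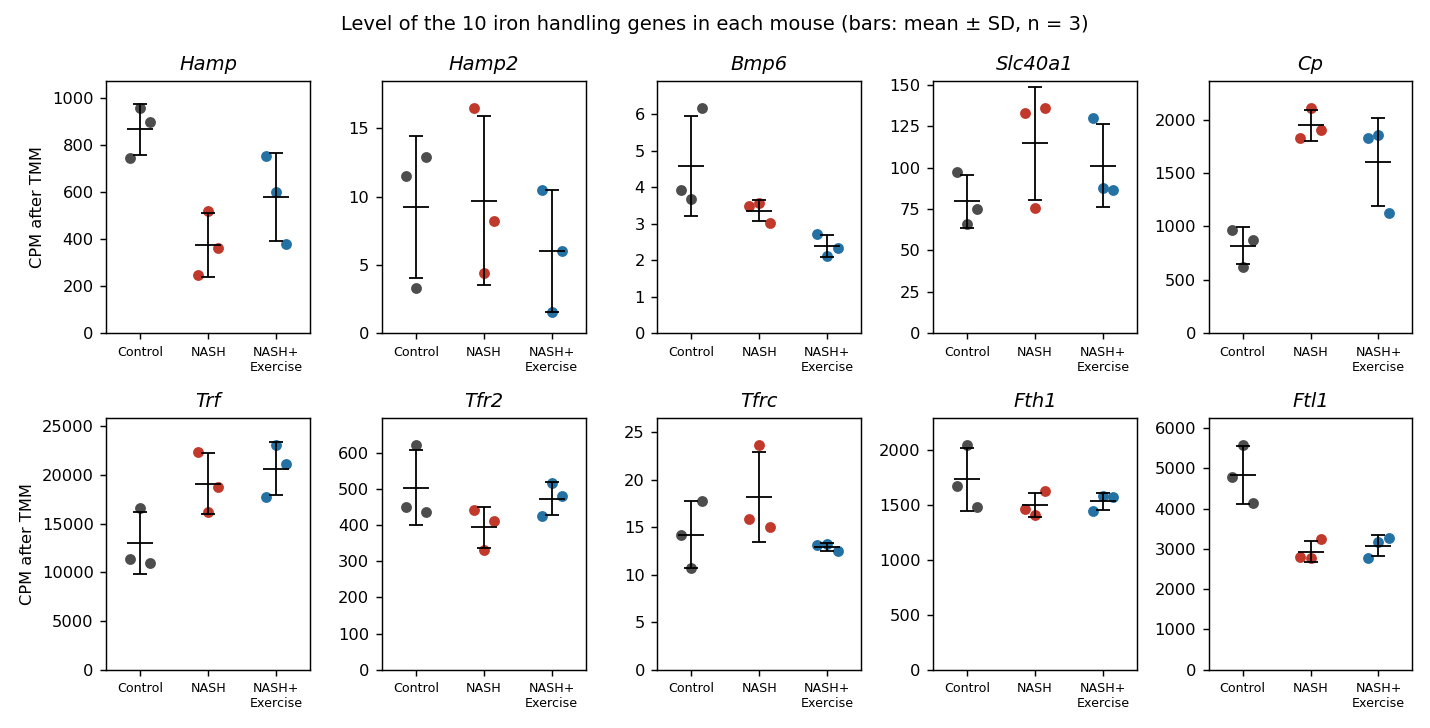
CPM after TMM scaling (vertical axis, from 0, with its own scale in each panel) of the 10 genes in the 9 mice, 1 point per mouse, with bars for the mean ± SD of 3 mice. Hamp lay at 744 to 958 in Control and at 248 to 518 in NASH, and Cp at 624 to 966 and 1829 to 2111.

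Hamp, at chr7:30942368-30944029 on the minus strand, was the clearest of the hormone genes. Its CPM was 744, 958 and 898 in Control mice 3, 4 and 29, 248, 518 and 360 in NASH mice 5, 19 and 20, and 752, 602 and 379 in NASH+Exercise mice 8, 18 and 22. Every NASH mouse lay below every Control mouse, while the trained mice spread across both groups. The log2 fold change in NASH against Control was -1.21 ± 0.30 (SE), with an adjusted p of 0.00973. This call depended on the scale and on 1 mouse, since it was lost with library size alone (-0.83, adjusted p = 0.0841) and on log2(TPM + 1) with limma (-0.83, adjusted p = 0.0841), and NASH mouse 5 carried it over the fold threshold (-0.99 without it, adjusted p = 0.0318). Relative to the summed hepatocyte markers of the same mouse, Hamp differed by -0.75 on the log2 scale, and the groups overlapped (two-sided exact permutation test, p = 0.3, where 0.1 is the smallest p for 3 mice against 3).

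Hamp2, a neighbouring copy of Hamp at chr7:30922372-30924181 on the same strand, was expressed at a small share of the level of Hamp. Its CPM was 11.5, 3.28 and 12.9 in Control, 16.5, 4.42 and 8.2 in NASH mice and 10.5, 1.56 and 6.04 in trained mice. The groups overlapped widely, and the log2 fold change in NASH against Control was 0.07 ± 0.69 (SE, adjusted p = 0.95), which reversed without Control mouse 4 (-0.35) or NASH mouse 5 (-0.55). Hamp2 made up 0.34 to 1.52% of the Hamp and Hamp2 counts in Control, 0.847 to 6.22% in NASH mice and 0.262 to 1.57% in trained mice. The first GENCODE transcripts of Hamp and Hamp2 are 92.6% identical, and 16.6% of the 50-base stretches of Hamp also occur in Hamp2, so the division of reads between them is uncertain. The sum of both genes avoids that division, and it differed by -1.19 ± 0.28 (log2 fold change ± SE, adjusted p = 0.00878) in NASH against Control.

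Bmp6, the inducer, was the least abundant gene of the list. Its CPM was 3.92, 3.67 and 6.17 in Control, 3.49, 3.57 and 3.02 in NASH mice and 2.71, 2.12 and 2.34 in trained mice. In CPM, all NASH mice lay below all Control mice, with 3.57 as the highest NASH value and 3.67 as the lowest Control value. All trained mice lay below all NASH mice. In TPM the NASH mice, at 1.89 to 2.55, lay within the Control range of 1.55 to 3.45. In NASH against Control the log2 fold change of -0.45 ± 0.24 (SE) did not pass the test (adjusted p = 0.164), and it was 0.00 on log2(TPM + 1) and 0.10 relative to the hepatocyte markers. The level rested on 45 to 121 estimated counts per mouse.

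Slc40a1 and Cp act together at export, where ferroportin moves iron out of the cell and the ferroxidase ceruloplasmin oxidises it. The CPM of Cp was 966, 624 and 872 in Control, 1829, 2111 and 1905 in NASH mice and 1828, 1858 and 1126 in trained mice. Both groups with the diet lay above Control in every mouse. Cp rose by a log2 fold change of 1.25 ± 0.23 (SE) in NASH against Control (adjusted p = 0.00178), and it was called under every alternative run for that comparison, with log2 fold changes of 1.07 to 1.70. Relative to the hepatocyte markers the difference was 1.78, with no overlap between the groups. Of 12 genes in a separate acute phase list, 7 were also called higher in NASH. The part of the acute phase in the rise of Cp was not tested. The CPM of Slc40a1 was 97.6, 66.1 and 75 in Control, 133, 75.4 and 136 in NASH mice and 130, 87.5 and 86.2 in trained mice. NASH mouse 19 lay within the Control range, and the log2 fold change of 0.53 ± 0.25 (SE) was not called (adjusted p = 0.132). It passed the adjusted p with library size alone (adjusted p = 0.0353), with limma on log2(TPM + 1) (adjusted p = 0.025) and without NASH mouse 19 (adjusted p = 0.0286), and relative to the hepatocyte markers it differed by 1.01 without overlap. Ferroportin is abundant in macrophages as well as in hepatocytes, and the macrophage markers moved in the same comparison as given above; their part in the level of Slc40a1 was not tested.

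Trf, the plasma carrier, was the most abundant gene of the list. It took 1.03 to 1.33% of all estimated counts in Control, 1.99 to 2.45% in NASH mice and 1.91 to 2.26% in trained mice. On the CPM scale after TMM its levels were 11392, 16631 and 10946 in Control, 16179 to 22382 in NASH mice and 17727 to 23103 in trained mice. Control mouse 4 reached above the lowest NASH mouse, and the log2 fold change in NASH against Control was 0.56 ± 0.22 (SE, adjusted p = 0.0738). On log2(TPM + 1) limma called it, just past the fold threshold (adjusted p = 0.000875), which the count fit did not. Relative to the hepatocyte markers the difference was 1.08, without overlap. In the annotation 79.8% of the 50-base stretches of the Trf transcript also occur in the gene model Gm20425. Whether the authors' counting included that model is not known here, so the assignment of Trf reads is uncertain.

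The receptors gave no call. Tfr2, the hepatocyte receptor that helps sense plasma iron, had a CPM of 449, 622 and 437 in Control, 441, 331 and 411 in NASH mice and 424, 515 and 480 in trained mice. The groups overlapped, and the log2 fold change in NASH against Control of -0.35 ± 0.18 (SE, adjusted p = 0.149) turned to 0.01 with library size alone and to 0.17 relative to the hepatocyte markers. Tfrc, the uptake receptor whose mRNA is protected when iron is short, was scarcer, at 14.2, 10.7 and 17.8 in Control, 15.9, 23.7 and 15 in NASH mice and 13.1, 13.2 and 12.5 in trained mice. NASH mouse 19 stood highest, and the log2 fold change in NASH against Control was 0.36 ± 0.21 (SE, adjusted p = 0.216).

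The storage genes differed from each other. Ftl1, the light chain, had a CPM of 4773, 5586 and 4145 in Control, 2795, 2776 and 3234 in NASH mice and 2776, 3179 and 3278 in trained mice. Every mouse on the Ath diet lay below every Control mouse, and the log2 fold change in NASH against Control was -0.72 ± 0.17 (SE, adjusted p = 0.00732), which limma on log2(TPM + 1) gave as -0.28 (adjusted p = 0.068). Relative to the hepatocyte markers Ftl1 differed by -0.20 (p = 0.3, two-sided exact permutation test) in NASH and by -0.19 in trained mice, both against Control and both with overlapping groups. Fth1, the heavy chain that carries the ferroxidase centre, overlapped between groups in CPM, at 1671, 2048 and 1483 in Control, 1463, 1412 and 1627 in NASH mice and 1443, 1581 and 1571 in trained mice. Its log2 fold change of -0.21 ± 0.16 (SE, adjusted p = 0.338) changed sign with library size alone (0.15) and relative to the hepatocyte markers (0.31).

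The ratio of the ferritin chains within a mouse does not depend on the scaling between libraries. In TPM, which is per length, the ratio of Ftl1 to Fth1 was 2.77, 2.65 and 2.71 in Control, 1.85, 1.91 and 1.93 in NASH mice and 1.87, 1.95 and 2.02 in trained mice. Its mean was 2.71 ± 0.0627 (SD, n = 3) in Control, 1.9 ± 0.0385 in NASH mice and 1.95 ± 0.0795 in trained mice, so both diet groups lay below Control by far more than the spread between mice. The mean log2 ratio differed by -0.51 in NASH against Control and by -0.48 in NASH+Exercise against Control, each with p = 0.1 in a two-sided exact permutation test, the smallest this design allows. Between the trained and the sedentary mice it differed by 0.04 (p = 0.4 in the same exact test). In TPM, Ftl1 was 7338 to 7505 in Control and 5730 to 6434 in NASH mice, and Fth1 was 2707 to 2835 and 3091 to 3337. On log2(TPM + 1) with limma, Ftl1 differed by -0.28 and Fth1 by 0.24 in NASH against Control. The median over all genes on that scale was 0.338, so Fth1 was not higher relative to the other genes. Of the 50-base stretches of the Ftl1 transcript, 78.9% also occur in at least 1 of 15 other annotated genes, led by Ftl1-ps1, against 6.59% for that of Fth1. Whether the authors' counting included those genes is not known here, so the level of Ftl1 is less certain than that of Fth1.

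**Figure D2:**
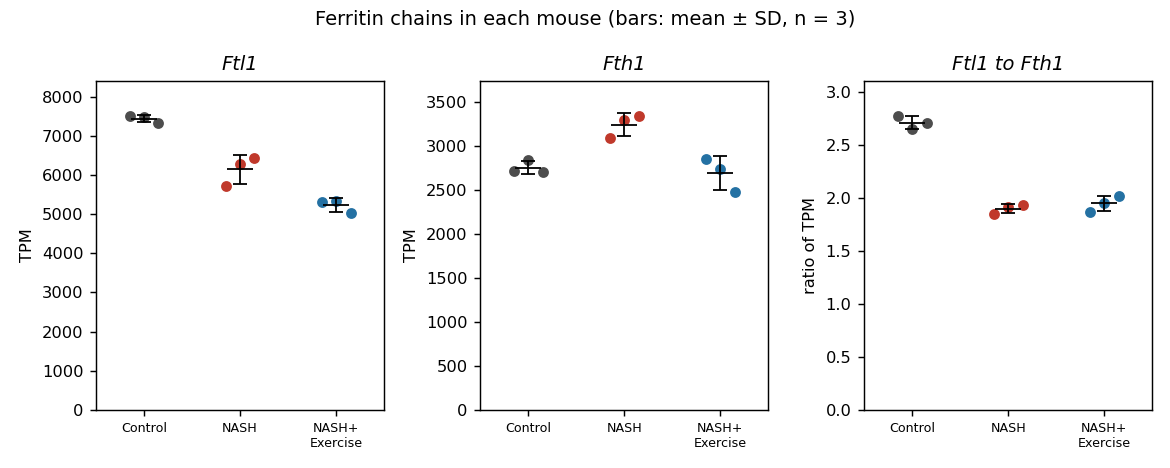
TPM of Ftl1 and of Fth1, and the ratio of the TPM values (vertical axes, from 0), with 1 point per mouse and bars for the mean ± SD of 3 mice. The ratio was 2.65 to 2.77 in Control, 1.85 to 1.93 in NASH mice and 1.87 to 2.02 in trained mice.

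Compared per length, the order of the mean levels in Control was Trf, Ftl1, Hamp, Fth1, Cp, Tfr2, Slc40a1, Hamp2, Tfrc and Bmp6, from 8081 TPM to 2.31 TPM. Neighbours whose ranges overlapped there were Trf and Ftl1, Cp and Tfr2, Slc40a1 and Hamp2, and Tfrc and Bmp6. In NASH, Hamp stood below Fth1, with 1326 to 3051 TPM against 3091 to 3337. In trained mice these same genes overlapped, with 1513 to 3754 TPM for Hamp and 2481 to 2853 for Fth1. Trf and Ftl1 no longer overlapped in either diet group. The summed TPM of the 10 genes was 22419 ± 1066 (SD, n = 3) in Control, 29071 ± 1046 in NASH mice and 25806 ± 2560 in trained mice. It differed by 6652 TPM in NASH against Control (p = 0.1, two-sided exact permutation test), by -3264 TPM in NASH+Exercise against NASH (p = 0.1, same exact test) and by 3388 TPM in NASH+Exercise against Control (p = 0.2, same exact test). When CPM after TMM took the place of TPM, the first of these differences was 4535 (p = 0.3, same exact test). The second turned to 1640 in CPM, and it was -1797 TPM without NASH+Exercise mouse 22. Mean Trf alone was 8081 TPM in Control and 16232 TPM in NASH mice.

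Whether training changed iron gene expression in mice given the Ath diet was asked by NASH+Exercise against NASH. None of the 10 genes was called or passed the adjusted p in edgeR's test, and DESeq2 and limma also called 0. At an unadjusted p under 0.05 there was 1, Tfrc, beside 15.3% of all genes. Of all genes 0.140% were called and 0.162% passed the adjusted p alone. In CPM, the groups did not overlap for Bmp6 and Tfrc, 2 of the 10, against 24.1% of all genes.

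The CPM of Tfrc was 12.5 to 13.2 in the trained mice and 15 to 23.7 in the sedentary ones, with a log2 fold change of -0.49 ± 0.21 (SE, unadjusted p = 0.0391 in edgeR's test, adjusted p = 0.299). For Bmp6 the log2 fold change was -0.49 (95% interval -1.02 to 0.04, adjusted p = 0.365). Hamp had 0.62 (95% interval -0.03 to 1.27, adjusted p = 0.345), and Cp had -0.28 (95% interval -0.78 to 0.21). The interval of Hamp holds a difference as large as that between NASH and Control, so the absence of a call does not show equal levels. The intervals of the ferritins were narrower, from -0.32 to 0.38 for Fth1 and from -0.30 to 0.44 for Ftl1. Trf, Tfr2 and Slc40a1 had log2 fold changes of 0.11, 0.26 and -0.18, and Hamp2 had -0.68 ± 0.70 (SE).

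**Figure D3:**
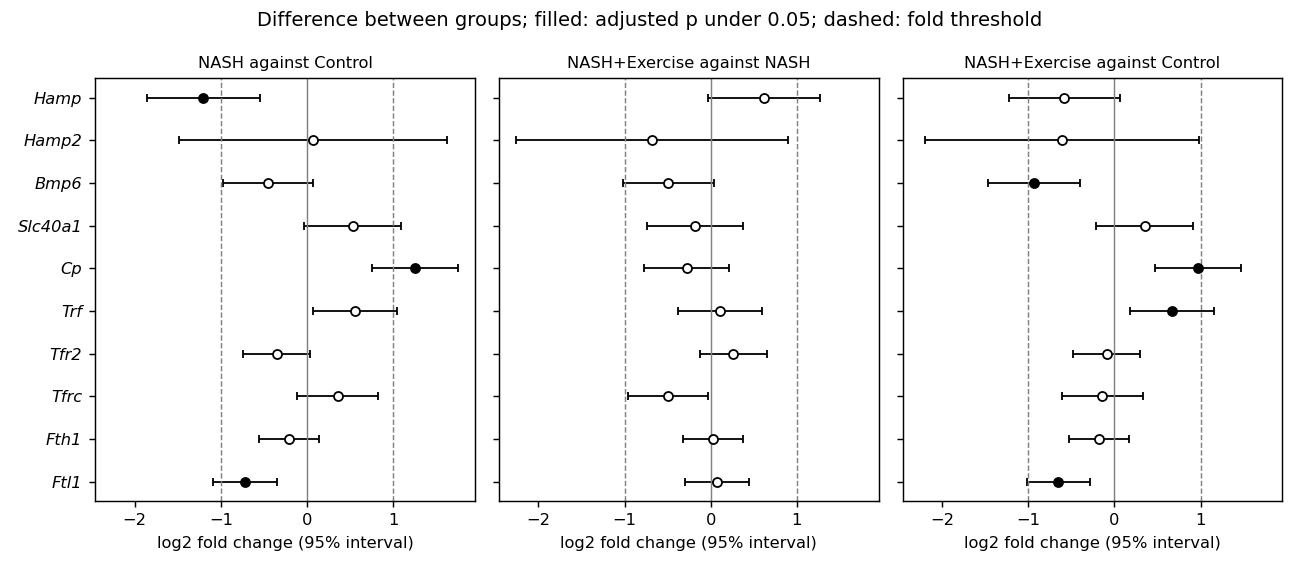
Log2 fold change (horizontal axis) of the 10 genes in the 3 comparisons, with 95% intervals from edgeR; filled points have an adjusted p under 0.05, and dashed lines mark the fold threshold of 1. Hamp (-1.21) and Cp (1.25) pass both thresholds in NASH against Control, and no point is filled in NASH+Exercise against NASH.

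In NASH+Exercise against Control, 4 genes passed the adjusted p and none reached the fold threshold, so 0 of the 10 were called. Of all genes 13.5% were called (10.4% higher and 3.07% lower), and 25.1% passed the adjusted p alone. Cp had a log2 fold change of 0.97 ± 0.23 (SE, adjusted p = 0.01) and Trf 0.67 ± 0.22 (SE, adjusted p = 0.0489). Bmp6 had -0.94 ± 0.24 (SE, adjusted p = 0.0163) and Ftl1 -0.65 ± 0.17 (SE, adjusted p = 0.0164). These same 4 genes were the ones whose groups did not overlap in CPM, against 38.6% of all genes. Hamp, at -0.59 ± 0.29 (SE), did not pass (adjusted p = 0.178), as the trained mice ran from 379 to 752 CPM beside 744 to 958 in Control. Cp and Bmp6 sat close to the fold threshold, and leaving out Control mouse 3 moved both past it (1.10 and -1.04). Bmp6 also passed without Control mouse 4 (-1.06) or NASH+Exercise mouse 8 (-1.04), and Cp also passed without NASH+Exercise mouse 22 (1.17). In other settings the adjusted p of Bmp6 missed the threshold, with library size alone (-0.81, adjusted p = 0.0836), with limma on log2(TPM + 1) (-0.49, adjusted p = 0.136), without Control mouse 29 (-0.68, adjusted p = 0.0529) and without NASH+Exercise mouse 18 (-0.86, adjusted p = 0.0608). Relative to the hepatocyte markers Bmp6 differed by -0.45, with overlap. The adjusted p of Trf was lost with RLE scaling (adjusted p = 0.072), with no filter on low counts (adjusted p = 0.0813) and in each fit that left out 1 of these 6 mice (adjusted p = 0.0599 to 0.174) other than Control mouse 4. That of Ftl1 was lost without NASH+Exercise mouse 8 (adjusted p = 0.0691). Since both NASH and NASH+Exercise were set against the same Control mice, these values are not an independent repeat of the first comparison.

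The other genes of iron handling were examined in 7 lists, with 85 genes tested. In NASH against Control, 9 were called higher and 3 lower, and 39 passed the adjusted p alone; the percentages for all genes are those given above. Between trained and NASH mice, edgeR called 0 of the 85 genes, DESeq2 called 0 and limma on log2(TPM + 1) called 1 (Flvcr2, at -1.11), with 10 at an unadjusted p under 0.05 in edgeR, beside 15.3% of all genes. Against Control, 9 were called higher and 4 lower.

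Among the 20 tested genes of hepcidin control through BMP and SMAD, Id1 was the single call of edgeR in NASH against Control, and DESeq2 also called Smad9, which encodes a SMAD protein. Id1 is a transcriptional target of BMP signalling, and its CPM was 11.8 to 16.8 in Control, 3.66 to 7.52 in NASH mice and 1.94 to 4.15 in trained mice. It fell by 1.32 on the log2 scale in NASH (SE 0.30, adjusted p = 0.00676) and by 2.27 in NASH+Exercise (SE 0.32, adjusted p = 0.000565), both against Control. In NASH it was not called with library size alone (-0.97, adjusted p = 0.0544) or with limma on log2(TPM + 1) (-0.87, adjusted p = 0.0534). Atoh8, another BMP target that acts on Hamp, was lower by the adjusted p in NASH (-0.77 ± 0.21, adjusted p = 0.018) and was called in NASH+Exercise against Control (-1.01 ± 0.22, adjusted p = 0.00628), where it missed the fold threshold with library size alone (-0.88), with limma (-0.83) and without Control mouse 4 (-0.98), Control mouse 29 (-0.84), NASH+Exercise mouse 8 (-0.91) or NASH+Exercise mouse 22 (-0.93). The BMP targets Smad6 (0.29, adjusted p = 0.353) and Smad7 (-0.09, adjusted p = 0.732), which inhibit the pathway, and the ligand Bmp2 (-0.31, adjusted p = 0.436) did not pass in NASH. The genes of the sensing complex, Hfe (-0.44, adjusted p = 0.00948) and the BMP co-receptor Hjv (-0.41, adjusted p = 0.0484), and the protease Tmprss6 that cleaves that co-receptor (-0.57, adjusted p = 0.0336), were lower by less than the fold threshold. This list had a median of -0.18, beside 0.01 for all genes. In the same comparison the sum of the hepatocyte markers was lower, as given above.

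Among the 10 tested genes of hepcidin control through IL6 and STAT3, 2 were called higher and 1 lower in NASH against Control, with a median of 0.54. Il6 itself did not pass the filter on low counts and was not tested. Socs3, a STAT3 target that inhibits the pathway, had a CPM of 9.56 to 17.9 in Control, 31.1 to 34.5 in NASH mice and 29.2 to 108 in trained mice (1.27 ± 0.42, adjusted p = 0.0395, NASH against Control). This call was lost with no filter on low counts (adjusted p = 0.083) and in each of the 6 fits that left out 1 of the mice compared (adjusted p = 0.0553 to 0.156). Il1b, an inflammatory cytokine, rose from 0.644 to 3.06 CPM in Control to 6.09 to 7.19 in NASH (4.6-fold, adjusted p = 0.0091). Creb3l3, a hepatocyte transcription factor that can act on Hamp, fell (-1.01 ± 0.16, adjusted p = 0.000747). It kept an adjusted p under 0.05 but missed the fold threshold with library size alone (-0.66), with limma (-0.58), without Control mouse 4 (-0.94) and without NASH mouse 19 (-0.92). Stat3 itself passed the adjusted p at 0.48 ± 0.16 (adjusted p = 0.0407). Hamp was lower in the same NASH livers in which Stat3 was higher and Id1 was lower, within the limits given for Hamp, Socs3 and Id1. The BMP targets Smad6 and Smad7 did not pass there. In trained mice Id1 was at 1.94 to 4.15 CPM, beside 3.66 to 7.52 in NASH mice, while Hamp was at 379 to 752, beside 248 to 518. How these genes relate to each other was not tested.

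**Figure D4:**
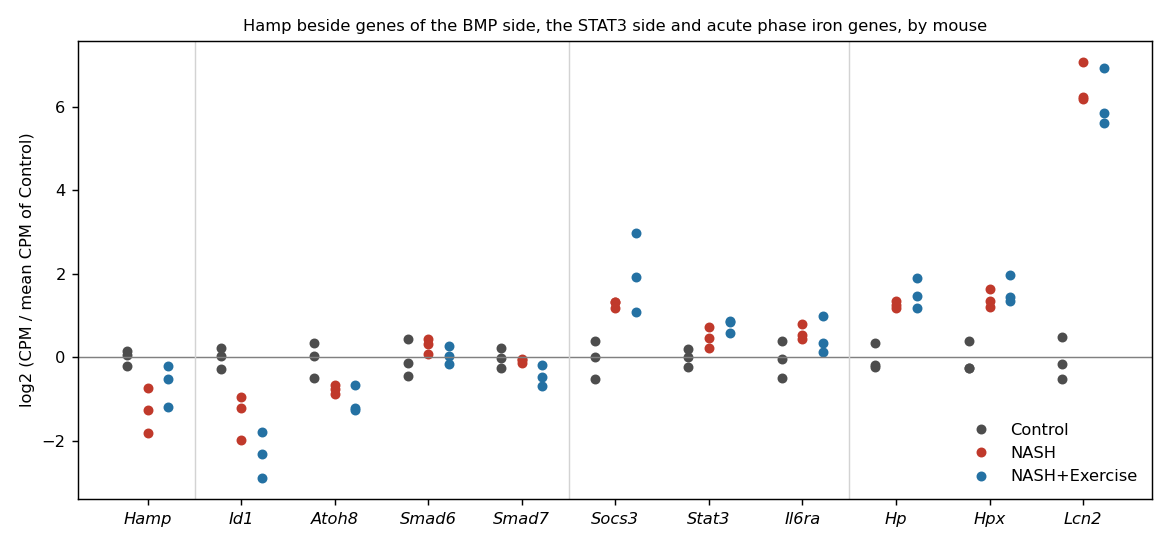
Log2 of the CPM of each mouse relative to the mean CPM of Control (vertical axis) for Hamp, for Id1, Atoh8, Smad6 and Smad7 of the BMP side, for Socs3, Stat3 and Il6ra of the STAT3 side, and for Hp, Hpx and Lcn2; each point is 1 mouse. Id1 lay below every Control mouse in the 6 mice on the Ath diet, while Socs3 lay above every Control mouse in them.

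The list of cellular iron uptake, reduction and storage turnover held the largest differences, with 4 of 15 called higher and 0 lower in NASH against Control. Lcn2, which binds iron-carrying siderophores, went from 3.17 to 6.39 CPM in Control to 329 to 609 in NASH (log2 fold change 6.55 ± 0.50, adjusted p = 1.66e-05). Slc11a1, an iron transporter of phagocytes, had 2.71 ± 0.16 (adjusted p = 3.79e-06), beside the macrophage markers given above, whose part in it was not tested. The metalloreductase gene Steap4 had 2.83 ± 0.21 (adjusted p = 8.02e-06), and Scara5, a receptor that binds ferritin and was named after its values were seen, had 3.38 ± 0.40 (adjusted p = 0.000185). Steap3, the endosomal reductase, passed the adjusted p at 0.55 ± 0.16 (adjusted p = 0.0247). Slc39a14, a carrier for iron not bound to transferrin, had 0.45 ± 0.17 (adjusted p = 0.0607) in NASH against Control and 0.77 ± 0.17 (adjusted p = 0.00705) in NASH+Exercise against Control.

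Steap4 was 272 to 292 CPM in NASH mice and 361 to 615 in trained mice, without overlap. The log2 fold change between them was 0.84 ± 0.20, with an unadjusted p of 0.00138 in edgeR's test and an adjusted p of 0.127. Without NASH+Exercise mouse 8 it was called, at 1.03 (adjusted p = 0.0471).

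None of the 5 genes of iron regulatory proteins and their turnover passed the adjusted p in NASH against Control by edgeR's test, with 1 at an unadjusted p under 0.05, beside 45.3% of all genes. Aco1 and Ireb2, which encode the proteins that bind the hairpins shown above, had log2 fold changes of -0.43 ± 0.18 (adjusted p = 0.0908) and -0.38 ± 0.25 (adjusted p = 0.261).

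Of the 13 genes of haem scavenging, transport and breakdown, 3 were called higher in NASH and 0 lower, with 8 values above 0 and 5 below. The called genes were Hmox1, the enzyme that opens the haem ring (1.46 ± 0.19, adjusted p = 0.000193), Hpx, the plasma haem carrier (1.41 ± 0.25, adjusted p = 0.00142), and Hp, the plasma haemoglobin carrier (1.26 ± 0.23, adjusted p = 0.00161). Hp and Hpx are also acute phase proteins, and 7 of 12 genes of a separate acute phase list were called higher in NASH. Lcn2 and Cp rose in the same livers, and the part of the acute phase in these rises was not tested. Of 8 genes of haem synthesis, Cpox was called lower (-1.48 ± 0.15, adjusted p = 3.77e-05), the list's median was -0.45, and 3 genes were lower by the adjusted p. The 10 hepatocyte markers had a median of -0.49 in the same comparison, whose part in the values of this list was not tested.

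Of 14 genes of mitochondrial iron and iron-sulphur clusters none was called in NASH against Control by edgeR's test, although 12 had an unadjusted p under 0.05, beside 45.3% of all genes. By the adjusted p, 8 were lower and 1 was higher, and the list's median was -0.44, beside -0.49 for the hepatocyte markers, whose part in it was not tested. In NASH+Exercise against NASH 12 of these 14 had values above 0 and none passed the adjusted p, with 1 at an unadjusted p under 0.05, beside 15.3% of all genes. The median was 0.18, beside -0.03 for all genes and 0.24 for the hepatocyte markers.

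**Figure D5:**
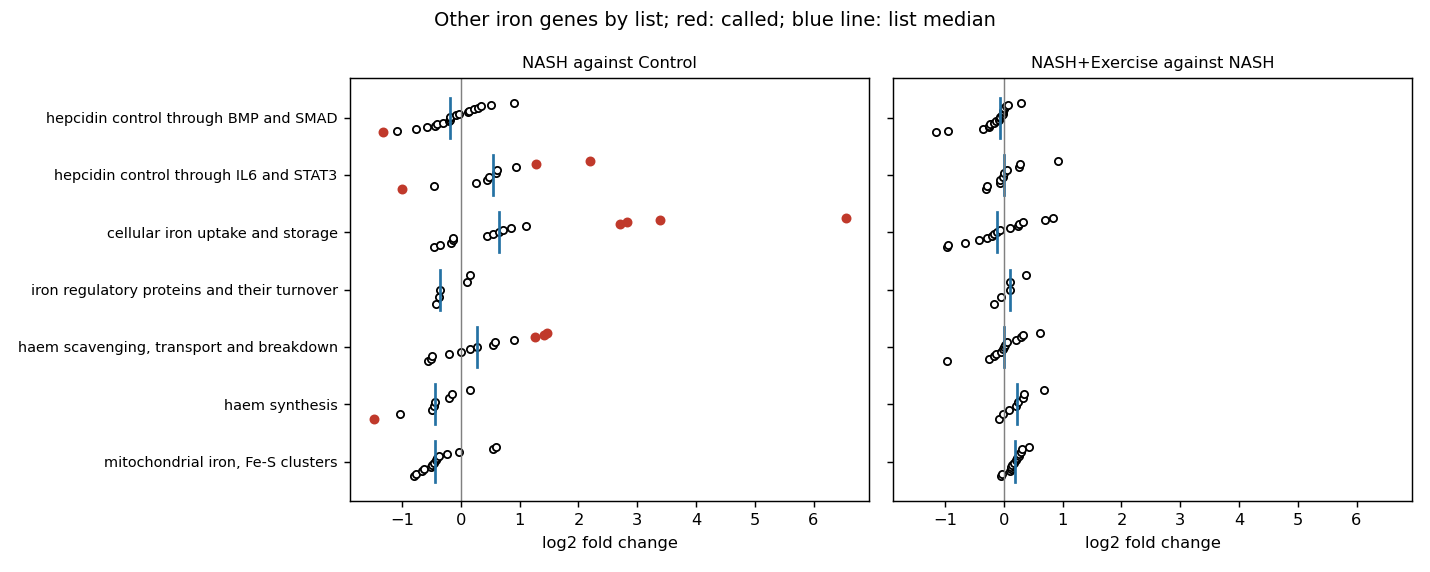
Log2 fold change (horizontal axis) of the 85 other iron genes by list, with 1 point per gene, red for genes called, and a blue line at the median of the list. The NASH against Control panel holds 9 red points above 0 and 3 below, and the NASH+Exercise against NASH panel holds none.

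The genes whose pattern over the 9 mice was most like that of Hamp, by the root mean square difference of centred log2 CPM, were Pparg (0.29), Sp5 (0.30) and Rasl11b (0.32). Among the other genes of the list, Ftl1 was the nearest to Hamp (0.48) and Hamp2 the farthest (1.31). For Cp, the gene other than the hepcidins with the largest log2 fold change in NASH against Control, they were Pot1b (0.09), Adamts10 (0.11) and Cklf (0.12). A small difference by this measure does not mean equal fold changes. In NASH against Control and NASH+Exercise against NASH, Hamp had -1.21 and 0.62, and Pparg -0.63 and 0.01. Sp5 had -1.03 and 0.30, and Rasl11b -0.97 and 0.24.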

How the data were processed

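Liver RNA of 9 mice was sequenced as mRNA libraries. The authors deposited for each mouse estimated counts per gene, which are not normalized, with FPKM and TPM values. The submitters' processing notes name HISAT2 2.1.0, Bowtie2 2.2.5, RSEM 1.2.8 and GRCm38.p6, without their roles. Of the deposited counts, 29 to 32.8% per library were not whole and were rounded. The FPKM values were not used. RefSeq gave symbols for 17728 identifiers and GENCODE for 13. Sequences come from RefSeq promoter windows and GENCODE transcripts of GRCm38.

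Counts of all 9 mice were fitted with edgeR 4.0.16 in R 4.3.3 (filterByExpr with a count of 10 and a total of 15, TMM, robust quasi-likelihood, group as the only term), with Benjamini-Hochberg adjustment. DESeq2 1.42.0, limma 3.58.1 on log2(TPM + 1), other scalings, no filter and leaving out each mouse were alternatives. Single values used two-sided exact permutation tests. The fits were tested on simulated data. The labels do not say that the mice came from separate cages or litters, so p-values measure the spread between these 9 mice.

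The genes and lists were chosen with earlier results of these data known. Named genes were the 10 genes, a fixed set of regulators and partners, and of each list the 3 called genes with the smallest p in NASH against Control, with the 3 genes of most like pattern for Hamp and for Cp. Of the 169 list genes 165 were matched, and Bmpr1b, Erfe, Il22 and Ftmt were not. Il6 and Steap1 were matched but did not pass the filter on low counts.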

Additional observations from a re-analysis of the deposited data

How the results depend on the processing

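For the hepcidin sum (Hamp plus Hamp2) in NASH against Control, the log2 fold change of -1.19 was -0.81 with library size alone (adjusted p = 0.0825) and -0.80 with limma on log2(TPM + 1) (adjusted p = 0.0863), and leaving out 1 mouse gave -1.51 to -0.98, the latter without NASH mouse 5. Genes of the 10 called in NASH against Control were 2, but 1 with library size alone, and 1 to 2 when a mouse was left out. On log2(TPM + 1) they were Trf and Cp. In NASH+Exercise against Control they were 0, but 1 with library size alone, 1 with limma and 4 by the adjusted p alone, and 0 to 2 without a mouse. Other iron genes called were 39 by the adjusted p alone in NASH against Control (12 with the fold threshold) and 25 in NASH+Exercise against Control (13). Between trained and NASH mice they were 1 with limma and 0 to 1 without a mouse. Of all genes, 4846 passed the adjusted p alone in NASH against Control (2494 with the fold threshold) and 3423 in NASH+Exercise against Control (1836, or 1068 with limma). Between trained and NASH mice the 19 calls became 174 with DESeq2 on all 9 mice, 204 with DESeq2 on the 6 mice compared, 110 with limma and 0 to 34 without a mouse. The summed TPM in NASH+Exercise against NASH, -3264, became 1640 as CPM after TMM and -1797 without NASH+Exercise mouse 22. The cause of these changes was not tested.

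Directions also turned for genes that were not called. With library size alone and with limma on log2(TPM + 1), NASH against Control gave 0.01 and 0.09 for Tfr2 and 0.15 and 0.24 for Fth1, and limma gave 0.00 for Bmp6. Likewise NASH+Exercise against NASH gave -0.09 and -0.18 for Trf, -0.17 and -0.27 for Fth1 and -0.14 and -0.23 for Ftl1, and limma gave -0.03 for Tfr2. NASH+Exercise against Control gave 0.07 and 0.06 for Tfr2, and limma gave 0.01 for Tfrc. Leaving out 1 mouse turned Hamp2 in NASH against Control (-0.35 without Control mouse 4, -0.55 without NASH mouse 5, up to 0.40 without NASH mouse 19), and in NASH+Exercise against Control it turned Tfr2 (-0.20 to 0.12, the latter without Control mouse 4) and Tfrc (-0.29 to 0.04, the latter without Control mouse 29). The ratio to hepatocyte markers, chosen after the data had been seen, turned Bmp6 (0.10), Tfr2 (0.17) and Fth1 (0.31) in NASH against Control, Tfr2 (0.39), Tfrc (0.35) and Fth1 (0.29) in NASH+Exercise against Control, and Fth1 (-0.02) in NASH+Exercise against NASH. No paired analysis was run, because each mouse belonged to a single group and the labels give no pairing of mice between groups. Counting error weighs most on Bmp6, with 45 to 121 estimated counts per mouse.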
